A study of Mus musculus with 18 samples.

Results

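Toll-like receptors, the LPS co-receptor CD14 and the adaptors and kinases that carry their signals were followed in mouse cortex after lipopolysaccharide (LPS, a component of the outer membrane of Gram-negative bacteria). The set was defined by name, with earlier results of these data known. It held 10 genes, and 8 of them had a row in the deposited tables of 13784 genes. These were Cd14, Tlr3, Tlr4, Tlr7, Myd88, Irak1, Traf6 and Tbk1, and all 8 passed the authors' filter in all 3 tables. Ly96 and Irak4 had no row under their symbol and were not analysed here. Members were matched by symbol alone, and 757 of the 13784 genes had no symbol.

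The series measured bulk RNA of dissected cortex from 18 mice in 4 groups. These were 5 LPS-injected mice in which Chd8 was conditionally deleted in astrocytes (cKO), 4 cKO mice given saline, 5 control mice given LPS and 4 control mice given saline. LPS was injected into the abdominal cavity at 5 mg/kg in mice of 4 to 6 months, and tissue was taken 72 hours later. Age and time of collection are recorded here for the LPS groups alone and not for the saline groups. The driver of the recombination, the genotype of the controls and the sex of the mice are not given in the sources used here. The comparisons ask how cortex responds to LPS in each genotype and whether loss of Chd8, a chromatin remodeller, in astrocytes changes that response.

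CD14 binds LPS and hands it to TLR4, which holds it together with MD-2, the product of Ly96. TLR3 and TLR7 sit in endosomes and recognise double-stranded and single-stranded RNA. TLR4 and TLR7 recruit the adaptor MyD88, which gathers the kinases IRAK4 and IRAK1 into the Myddosome and activates the ubiquitin ligase TRAF6 and then NF-kB. TLR3, and TLR4 from endosomes, signal through the adaptor TRIF to the kinase TBK1, which phosphorylates the interferon regulatory factor IRF3. In the brain, microglia are the main cells known for CD14, TLR4 and TLR7.

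Each deposited table gives, per gene, a log2 fold change, the mean log2 CPM (reads scaled to the size of the library), an F statistic, a p-value and a false discovery rate (FDR). A gene is called changed at an FDR below 0.05, and it is then written that it rose or fell. Values per mouse were not used here, so the depth of each library is unknown and the spread between mice enters only through the standard errors (SE) derived from the deposited statistics. Chd8, the targeted gene, was measured across the whole cortex. After LPS it differed between cKO and control mice by a log2 fold change of 0.02 ± 0.05 SE (FDR = 0.901) in the authors' deposited table. LPS raised it by 0.45 ± 0.07 in cKO mice and by 0.34 ± 0.08 in control mice in the authors' deposited tables. All 7 neuron, 8 astrocyte, 5 oligodendrocyte and 9 microglia markers listed had a row, whereas 0 of 8 blood myeloid markers and 1 of 6 lymphocyte markers did. Choroid plexus markers, which do not belong to cortex, summed to 22.1 CPM in cKO LPS, 116.8 CPM in cKO saline, 11.4 CPM in control LPS and 114.4 CPM in control saline, with 0 of 3 called for LPS (0 with an unadjusted p below 0.05) in either genotype. Striatal markers summed to 318.5 CPM in cKO LPS, 252.2 CPM in cKO saline, 223.3 CPM in control LPS and 221.5 CPM in control saline. All 6 lay above 0 for cKO against control mice after LPS, with a median of 0.67, and 0 passed. For LPS against saline, 2 rose in cKO mice and 0 in control mice, where 10.9% and 6.46% of all genes were called higher. The part of these markers in the values of the 8 genes was not tested.

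After LPS, Cd14 rose in cKO and in control cortex, Irak1 rose in both, and Tlr7 rose in controls. The remaining receptors and MyD88 did not pass the threshold in either genotype, and Traf6 and Tbk1 stayed within narrow intervals around 0. In the authors' deposited table for cKO mice, 2 of the 8 genes rose and 0 fell, where 19.5% of all genes were called, 10.9% higher and 8.52% lower. The authors' deposited table for control mice had 3 of 8 higher and 0 lower, where 9.76% of all genes were called, 6.46% higher and 3.31% lower. After a trend on GC content and length was taken out, the split over all genes was 937 higher and 1272 lower in cKO mice, against 1506 and 1175 as deposited. In control mice the corresponding split was 602 and 683, against 890 and 456 as deposited. The median log2 fold change of the 8 genes was 0.18 in cKO and 0.48 in control mice, beside a median of 0.00 over all genes in each table. Since the set was chosen with earlier results known, its counts and medians describe it and do not test it.

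**Figure D1:**
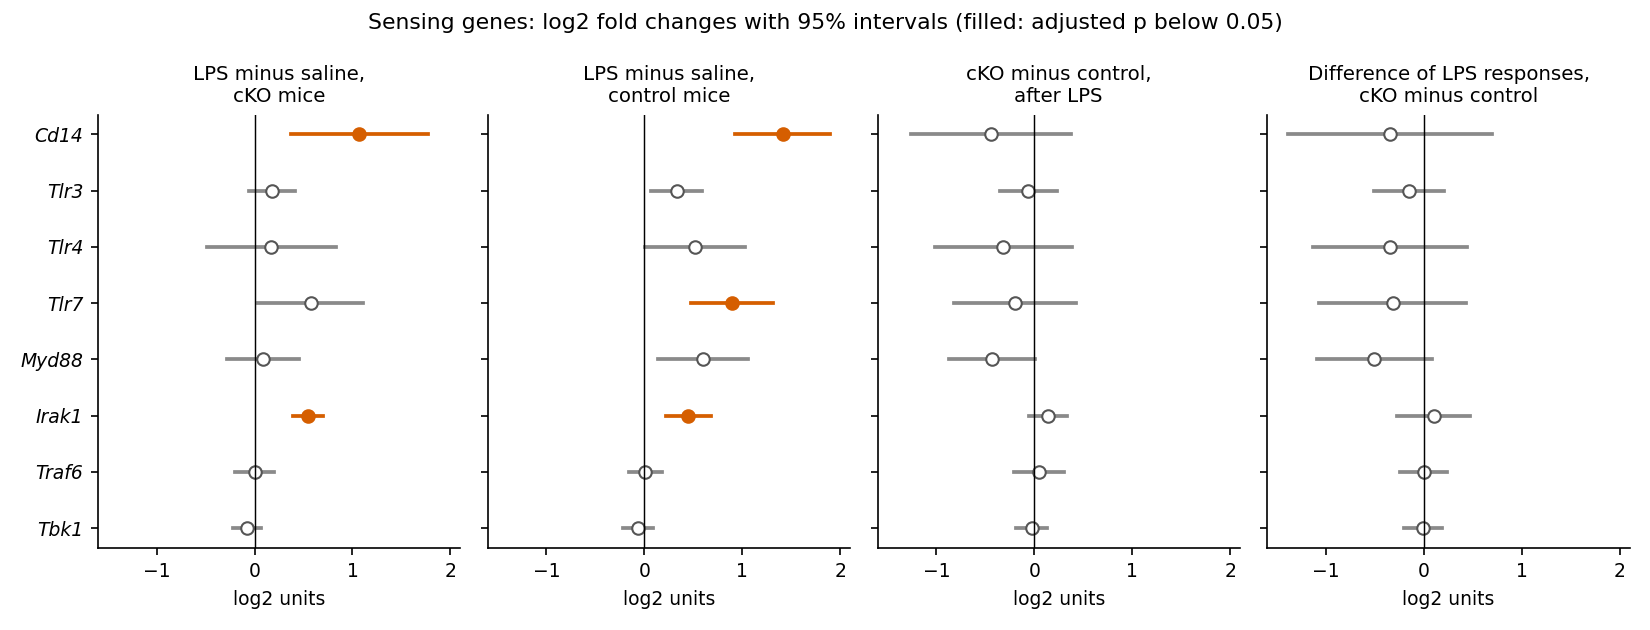
Log2 fold changes of the 8 sensing genes (points) with 95% intervals (lines) for LPS against saline in cKO and in control mice, for cKO against control mice after LPS, and for the difference of the LPS responses; the horizontal axes are in log2 units and filled orange points have an adjusted p below 0.05. Cd14 and Irak1 are filled in both LPS panels and Tlr7 in the control panel, and no gene is filled in the panels that compare the genotypes.

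Cd14, the LPS co-receptor, had the largest response of the set. Its level, estimated from the authors' deposited tables, was 2.39 CPM in cKO LPS and 1.14 CPM in cKO saline. In controls the estimate from the authors' deposited tables was 3.05 CPM with LPS and 1.145 CPM with saline. The saline groups thus stood at nearly the same estimated level, and both LPS groups stood above them. The saline levels come from separate tables. From the deposited fold changes, cKO minus control after saline was estimated at -0.10 log2 units, and no test compared these groups. In bulk tissue, a change in the number of cells of a type and a change in RNA per cell cannot be told apart. In the authors' deposited tables the log2 fold change was 1.07 ± 0.31 in cKO mice (FDR = 0.0404) and 1.42 ± 0.22 in control mice (FDR = 0.0055). By size of the fold change Cd14 stood at place 174 of 13784 genes in cKO mice and at place 90 in control mice in the authors' deposited tables. Its mean log2 CPM in the cKO table was 0.88, so it was among the lowest expressed genes of the set. Once the trend on GC content and length was taken out, the cKO value was 0.9953 and no longer passed (adjusted p = 0.0564). Without the trend on mean expression it was 0.81 (adjusted p = 0.0976), and Cd14 was not tested there once genes below a mean log2 CPM of 1 were left out.

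Tlr4, the receptor to which CD14 passes LPS, did not pass the threshold in either genotype. Estimated levels from the authors' deposited tables were 3.29 CPM in cKO LPS and 2.92 CPM in cKO saline, and 3.88 CPM in control LPS and 2.71 CPM in control saline. The authors' deposited tables gave log2 fold changes of 0.17 ± 0.29 in cKO mice (FDR = 0.704) and 0.52 ± 0.23 in control mice (FDR = 0.167). The 95% interval in cKO mice ran from -0.48 to 0.83 and that in control mice from 0.01 to 1.03, so a rise of the size seen for Cd14 in controls lay outside both.

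Tlr7, the endosomal receptor for single-stranded RNA, had a log2 fold change of 0.57 ± 0.24 in cKO mice (FDR = 0.119) and rose by 0.89 ± 0.19 in control mice (FDR = 0.0216) in the authors' deposited tables. The 95% interval in cKO mice ran from 0.04 to 1.11. Its estimated level from the authors' deposited tables was 3.63 CPM in cKO LPS and 2.44 CPM in cKO saline, and 3.93 CPM in control LPS and 2.11 CPM in control saline. The LPS groups stood above the saline groups in both genotypes, but the call was made in controls alone. The difference of these responses is tested further on.

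Tlr3, the receptor for double-stranded RNA, had smaller values. The authors' deposited tables gave 0.18 ± 0.11 in cKO mice (FDR = 0.258) and 0.33 ± 0.12 in control mice (FDR = 0.0965). It was the most abundant receptor of the set per length of transcript, at an estimated 1.95 CPM per kb in cKO saline and 1.79 CPM per kb in control saline from the authors' deposited tables. In the same saline groups, Tlr4 stood at 0.716 and 0.664, Tlr7 at 0.626 and 0.543 and Cd14 at 0.694 and 0.698 CPM per kb. These last 3 receptors lay close together, and no spread between mice is at hand to order them.

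**Figure D2:**
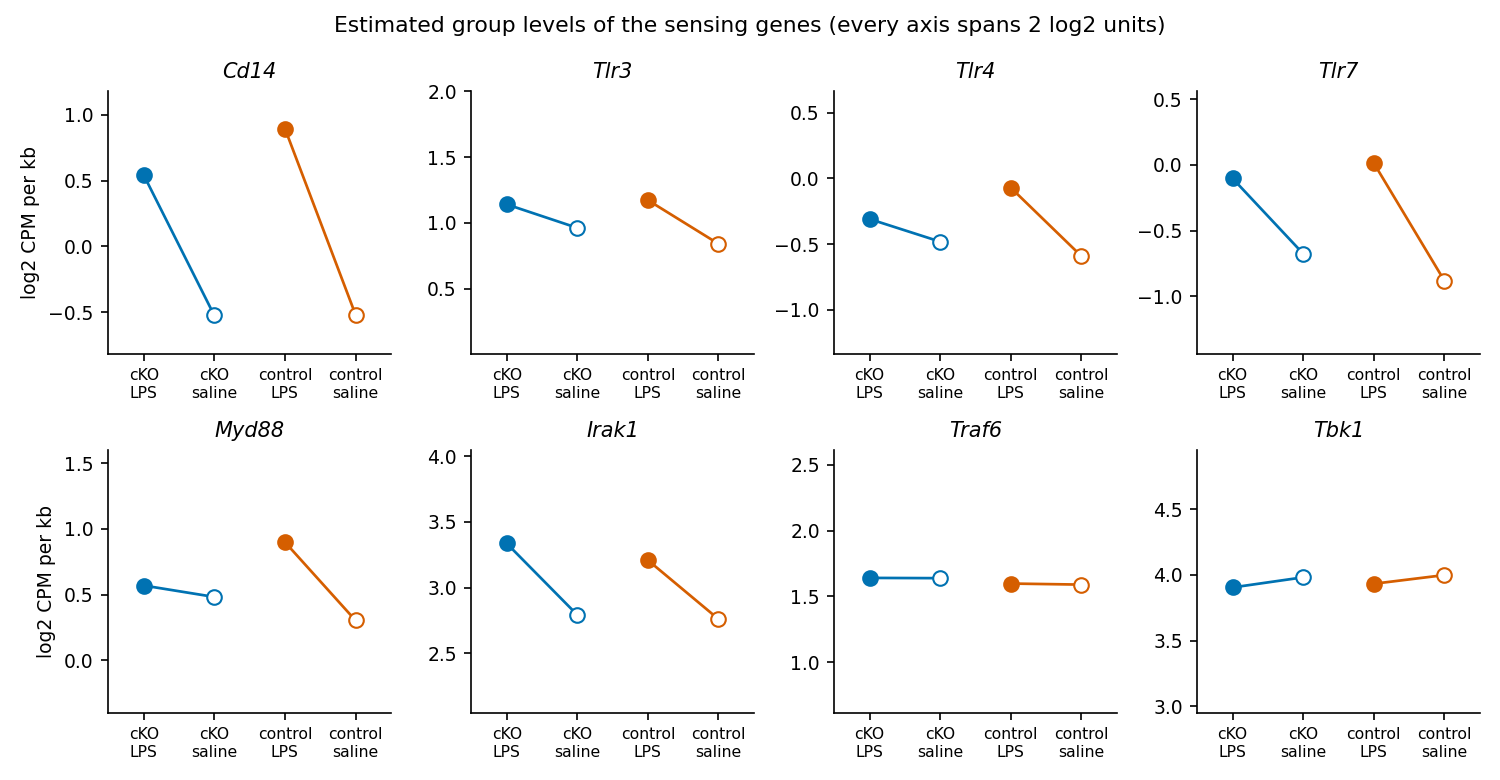
Estimated levels of the 8 sensing genes in log2 CPM per kb of the longest annotated transcript (vertical axes, each spanning 2 log2 units), in cKO LPS, cKO saline, control LPS and control saline mice; filled points are LPS groups, open points saline groups, and lines join the groups of 1 genotype. The slopes are steepest for Cd14 and nearly flat for Traf6 and Tbk1. The saline groups of the genotypes lie closest for Cd14 and furthest apart for Tlr7, at -0.68 in cKO and -0.88 in control mice, and no test compared them.

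Myd88, the adaptor shared by most Toll-like receptors, had the widest gap within the set between the LPS responses of the genotypes. The authors' deposited tables gave a log2 fold change of 0.09 ± 0.16 after LPS in cKO mice (FDR = 0.732) and of 0.60 ± 0.21 in control mice (FDR = 0.0923), neither past the threshold. Its estimated level from the authors' deposited tables was 3.65 CPM in cKO LPS, 3.44 CPM in cKO saline, 4.59 CPM in control LPS and 3.035 CPM in control saline. Control LPS was the highest of the 4 estimates and control saline the lowest. The Myd88 locus overlaps Acaa1a on the other strand and Slc22a14 on the same strand in the GENCODE M21 annotation. The Tlr3 locus overlaps the antisense gene Gm45542, and the Irak1 locus overlaps the microRNA genes Mir5132 and Mir718 on the same strand. The libraries were stranded, but no source used here states whether reads were counted by strand.

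Irak1, a kinase of the Myddosome, was the one adaptor or kinase of the set that rose. It rose by 0.54 ± 0.07 in cKO mice (FDR = 0.00432) and by 0.45 ± 0.10 in control mice (FDR = 0.0301) in the authors' deposited tables. By p-value it stood at place 51 of 13784 genes in cKO mice and at place 685 in control mice in the authors' deposited tables. Estimated levels from the authors' deposited tables were 38.7 CPM in cKO LPS and 26.5 CPM in cKO saline, and 35.4 CPM in control LPS and 26.0 CPM in control saline. These fold changes, of 1.46 in cKO mice and 1.365 in control mice, stayed below a minimum of 1.5.

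Tlr7 and Irak1 lie on the X chromosome, and sex-linked transcripts stood at different estimated levels in the groups. From the authors' deposited tables, Xist had an estimated log2 CPM of 5.91 in cKO LPS, 4.35 in cKO saline, 7.33 in control LPS and 7.47 in control saline. Ddx3y, on the Y chromosome, stood at 5.71 in cKO LPS, 5.87 in cKO saline, 3.68 in control LPS and -7.185 in control saline. Control saline was thus the lowest group for this transcript by far, so that sex-linked expression and treatment cannot be told apart in control mice, nor sex-linked expression and genotype after saline. The part of sex-linked expression in the values of Tlr7, Irak1 and the other 6 genes was not tested.

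Traf6, the ubiquitin ligase downstream of the Myddosome, differed by less than 0.01 on the log2 scale between LPS and saline in both genotypes. In the authors' deposited tables its values were 0.00 ± 0.09 in cKO mice (FDR = 0.993) and 0.01 ± 0.08 in control mice (FDR = 0.962). The 95% intervals ran from -0.20 to 0.20 and from -0.16 to 0.18. Tbk1, the kinase of the TRIF branch, had -0.08 ± 0.07 in cKO mice (FDR = 0.425) and -0.07 ± 0.07 in control mice (FDR = 0.563) in the authors' deposited tables, with intervals from -0.22 to 0.07 and from -0.22 to 0.09. A change of the size seen for Irak1 lay outside these 4 intervals. Tbk1 was also the most abundant of the 8 genes per length of transcript, at an estimated 15.0 CPM per kb in cKO LPS, 15.8 in cKO saline, 15.3 in control LPS and 15.98 in control saline from the authors' deposited tables. Irak1 followed with 10.1, 6.92, 9.24 and 6.77 CPM per kb in the same groups, and Traf6 with 3.12, 3.11, 3.025 and 3.01 CPM per kb.

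The promoter search covered 5 of the 8 genes, namely Tlr3, Myd88, Irak1, Traf6 and Tbk1. Their RefSeq promoters of build GRCm38.p6 were matched by symbol. Irak1 had 2 listed starts, of which only the first was searched. Windows from 250 bases before to 50 bases after the start were searched on both strands. The searched motifs were the NF-kB consensus, the interferon-stimulated response element ISRE (GAAA, then any 2 bases, then GAAA), the STAT motif GAS (TTCNNNGAA), AP-1 (TGANTCA) and the core of the myeloid factor PU.1 (GAGGAA). The 250 bases before the start are printed for Irak1, which was called in both genotypes, for Myd88, which had the widest gap between responses, and for Tbk1, which stayed near 0. Capitals mark motif matches. The stretches lie on the minus strand at chrX:74023922-74024171 for Irak1, chr9:119340019-119340268 for Myd88 and chr10:121586795-121587044 for Tbk1 in GRCm38.p6.
Irak1: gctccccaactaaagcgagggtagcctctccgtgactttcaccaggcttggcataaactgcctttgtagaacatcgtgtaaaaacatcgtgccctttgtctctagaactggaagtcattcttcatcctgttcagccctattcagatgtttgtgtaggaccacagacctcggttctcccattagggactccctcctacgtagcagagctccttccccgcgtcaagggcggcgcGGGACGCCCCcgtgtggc
Myd88: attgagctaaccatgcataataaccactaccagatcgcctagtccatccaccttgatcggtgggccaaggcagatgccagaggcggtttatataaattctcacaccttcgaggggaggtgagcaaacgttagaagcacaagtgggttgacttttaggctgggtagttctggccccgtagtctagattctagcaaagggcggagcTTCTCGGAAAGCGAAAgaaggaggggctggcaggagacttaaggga
Tbk1: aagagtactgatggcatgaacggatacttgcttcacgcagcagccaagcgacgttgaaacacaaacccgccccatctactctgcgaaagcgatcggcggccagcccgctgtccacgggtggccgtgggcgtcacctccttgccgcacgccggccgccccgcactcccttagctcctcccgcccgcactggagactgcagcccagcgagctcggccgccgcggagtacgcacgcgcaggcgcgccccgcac

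In the Irak1 window the NF-kB consensus matched on both strands from base -18 to base -9 relative to the start. In the Myd88 window a GAS match from base -46 to base -38 overlapped an ISRE match from base -40 to base -31. None of the 5 motifs matched in the Tbk1 window. Of the other promoters, that of Tlr3 held 1 NF-kB match from base -211 to base -202, and that of Traf6 held 2 PU.1 core matches. Over the first listed promoter of 27025 gene symbols, the NF-kB consensus was found in 8.18%, ISRE in 3.49%, GAS in 8.47%, AP-1 in 7.93% and the PU.1 core in 28.3%. Promoters of Cd14, Tlr4 and Tlr7 were not searched, so the motif results leave out Cd14, which had the largest response of the set. The matches describe letters in a window and no binding was measured.

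The response of the set was next set beside 66 other measured genes of the sensing pathways. Of these, 15 rose and 4 fell in cKO mice and 18 rose and 0 fell in control mice in the authors' deposited tables. The shares over all genes were 10.9% higher and 8.52% lower in cKO mice, and 6.46% higher and 3.31% lower in controls. The median log2 fold change of the 66 genes was 0.19 in cKO mice and 0.17 in control mice. The lists were chosen with earlier results of these data known, so the counts describe and do not test them.

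Among other surface and endosomal receptors, 2 of 9 listed genes had a row and both rose in both genotypes. Tlr2, the receptor for bacterial lipoproteins, rose by 1.91 ± 0.40 in cKO mice and 2.13 ± 0.19 in control mice in the authors' deposited tables. Tlr13, the mouse receptor for bacterial ribosomal RNA, rose by 1.43 ± 0.32 in cKO mice and 1.205 ± 0.16 in control mice in the authors' deposited tables. Of 8 folding and trafficking genes, Unc93b1, the chaperone that carries TLR3, TLR7 and TLR13 to endosomes, rose by 0.94 ± 0.16 in cKO mice and 0.94 ± 0.10 in control mice in the authors' deposited tables. In that list, Rab11a (-0.26 ± 0.05) and Tmed7 (-0.27 ± 0.06) fell in cKO mice in the authors' deposited table. In control mice Rab11a had -0.22 ± 0.06 (FDR = 0.0525) and Tmed7 had -0.23 ± 0.07 (FDR = 0.0537). Both encode trafficking proteins, and the Tmed7 call ended once the trend on GC content and length was taken out (adjusted p = 0.0881).

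Of 6 LPS capture and scavenger receptor genes, 3 rose in cKO mice and 4 in control mice. Itgam and Itgb2, the subunits of complement receptor CR3, rose by 1.06 ± 0.28 and 1.34 ± 0.32 in cKO mice in the authors' deposited table. In control mice they rose by 1.57 ± 0.17 and 1.503 ± 0.14 in the authors' deposited table. Trem2, a lipid-binding microglial receptor, rose by 0.45 ± 0.13 in cKO mice and 0.90 ± 0.11 in control mice in the authors' deposited tables, and its cKO call ended once the trend on GC content and length was taken out (adjusted p = 0.0794). Ly86, the MD-1 relative of Ly96, had 0.56 ± 0.20 in cKO mice (FDR = 0.0725) and rose by 1.34 ± 0.20 in control mice in the authors' deposited tables.

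Downstream of the receptors, among 4 adaptors, Pik3ap1, which couples Toll-like receptors to phosphoinositide 3-kinase, rose by 1.21 ± 0.33 in cKO mice and 1.46 ± 0.24 in control mice in the authors' deposited tables. Of 13 genes of IRAK and Myddosome signalling, 1 rose in cKO mice and 0 in control mice in the authors' deposited tables, where 6 and 2 had an unadjusted p below 0.05. Over all genes, 35.8% in cKO mice and 28.9% in control mice had an unadjusted p below 0.05. The gene called was Ube2v1, a ubiquitin-conjugating partner, at 0.19 ± 0.05, and the call ended once the trend on GC content and length was taken out (adjusted p = 0.199). In control mice Ube2v1 had 0.15 ± 0.08 (FDR = 0.21). Of 9 genes of the TBK1 and IRF branch, 0 rose and 2 fell in cKO mice, the TBK1 adaptors Azi2 (-0.22 ± 0.05) and Tank (-0.28 ± 0.08), in the authors' deposited table. The Tank call ended once the trend on GC content and length was taken out (adjusted p = 0.133). Azi2 had -0.15 ± 0.07 (FDR = 0.187) and Tank -0.19 ± 0.07 (FDR = 0.122) in control mice. In control mice the transcription factors Irf7 (1.20 ± 0.22) and Irf8 (0.68 ± 0.14) rose in the authors' deposited table. Irf7 had 1.26 ± 0.43 (FDR = 0.0689) and Irf8 0.32 ± 0.12 (FDR = 0.0816) in cKO mice, neither past the threshold. Among 9 negative regulators, Lilrb4a, an inhibitory receptor, rose by 2.69 ± 0.39 in cKO mice and 1.89 ± 0.26 in control mice in the authors' deposited tables. Tnip1, a partner of the deubiquitinase A20, rose by 0.45 ± 0.13 in cKO mice in the authors' deposited table, but not once the trend on GC content and length was taken out (adjusted p = 0.117). In control mice Tnip1 had 0.41 ± 0.15 (FDR = 0.101).

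Cytosolic sensors of nucleic acids were called in both genotypes. Of 7 RNA-sensing genes 2 rose in cKO mice and 3 in control mice. Trim25, the ligase that acts on RIG-I, rose by 0.93 ± 0.21 in cKO mice and 1.07 ± 0.16 in control mice, and the kinase gene Eif2ak2 by 0.58 ± 0.15 and 0.63 ± 0.15, in the authors' deposited tables. Ddx58, which encodes RIG-I itself, had 0.52 in cKO mice (FDR = 0.204) and rose by 0.56 ± 0.14 in control mice in the authors' deposited tables. Of 3 DNA-sensing genes, Aim2 rose by 1.14 ± 0.23 in cKO mice and 0.95 ± 0.20 in control mice, and Samhd1 rose by 0.53 ± 0.10 in control mice, in the authors' deposited tables. Samhd1 had 0.31 ± 0.11 in cKO mice (FDR = 0.0823). Of 5 genes for cytosolic LPS and the inflammasome, the adaptor Pycard rose by 0.975 ± 0.28 in cKO mice and 1.19 ± 0.29 in control mice in the authors' deposited tables. The pore-forming protein gene Gsdmd rose by 0.87 ± 0.21 in cKO mice, and the guanylate-binding protein gene Gbp2 rose by 1.27 ± 0.18 in control mice, in the authors' deposited tables. Gsdmd had 0.65 ± 0.25 in control mice (FDR = 0.125) and Gbp2 had 0.83 in cKO mice, neither past the threshold. The cKO calls of Pycard (adjusted p = 0.0712) and Gsdmd (adjusted p = 0.0598) ended with the trend on mean expression removed.

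**Figure D3:**
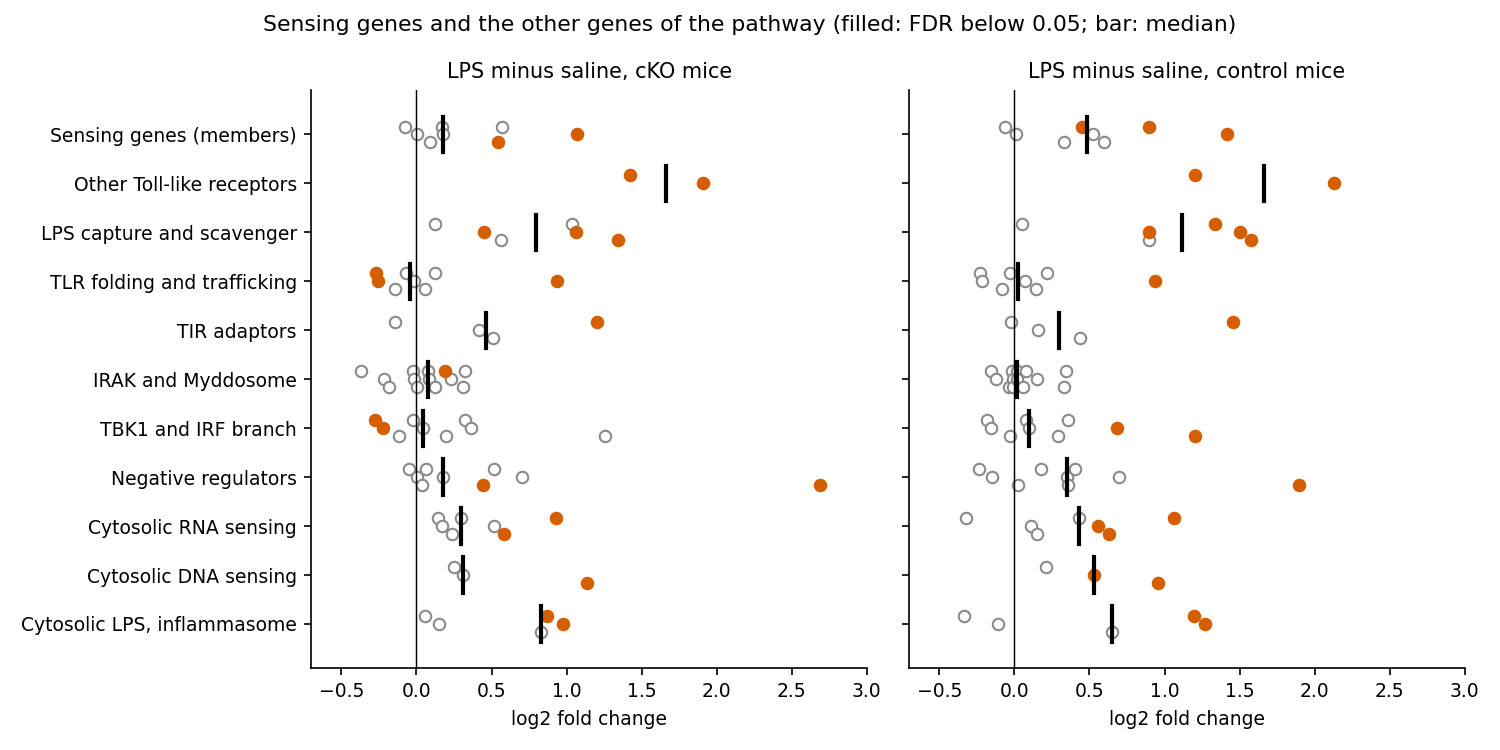
Log2 fold changes for LPS against saline (horizontal axes) of the 8 sensing genes and of 10 lists of other genes of the pathway (rows), in cKO mice on the left and in control mice on the right; each point is 1 gene, filled points have an FDR below 0.05 and black bars are list medians. The point furthest to the right is Lilrb4a among the negative regulators in cKO mice (2.69) and Tlr2 among the other receptors in control mice (2.13), while genes of IRAK and Myddosome signalling cluster around 0.

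None of the 8 genes passed the test between cKO and control mice after LPS. The count was 0 of 8 in the authors' deposited table (edgeR, per the submitters' processing notes), and 0 had an unadjusted p below 0.05. Over all genes 0.00725% passed, a single gene, which was lower in cKO mice, and 12.3% had an unadjusted p below 0.05. Of the 8 values, 6 lay below 0 and the median was -0.13. Myd88 had -0.43 ± 0.19 (FDR = 0.411, 95% interval -0.87 to 0.01) and Cd14 had -0.44 ± 0.36 (FDR = 0.64, 95% interval -1.26 to 0.37) in the authors' deposited table. Tlr4 (-0.32 ± 0.31), Tlr7 (-0.20 ± 0.27) and Tlr3 (-0.06 ± 0.13) were also below 0 in the authors' deposited table. Irak1 stood at 0.14 ± 0.09, Traf6 at 0.05 ± 0.11 and Tbk1 at -0.03 ± 0.07 in the authors' deposited table. For Cd14, Tlr4, Tlr7 and Myd88 the intervals still hold values more than 1.5-fold lower in cKO mice, so they do not show that the genotypes were alike. The Y-linked Ddx3y stood at 1.42 ± 1.70 in the same comparison (FDR = 0.764) in the authors' deposited table, and its part in these values was not tested.

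The difference of the LPS responses, cKO minus control, was tested per gene from the corresponding pair of LPS tables, which share no library. None of the 8 genes passed (lowest adjusted p = 0.819), and 0 had an unadjusted p below 0.05. With standard errors taken from F, 0 passed as well (lowest adjusted p = 0.613) and 0 had an unadjusted p below 0.05. Over all genes 0.00725% passed, and 6.52% had an unadjusted p below 0.05. The largest difference was that of Myd88, at -0.51 with a 95% interval from -1.095 to 0.08. For Tlr7, which was called in controls alone, the difference was -0.32 with an interval from -1.08 to 0.43 (adjusted p = 0.923). Cd14 had -0.35 (interval -1.39 to 0.70), Tlr4 -0.35 (interval -1.14 to 0.44) and Tlr3 -0.15 (interval -0.51 to 0.20). Irak1 was the single gene above 0, at 0.10 (interval -0.28 to 0.47), and Traf6 and Tbk1 both stood at -0.01. With standard errors from F, the interval was -1.06 to 0.04 for Myd88, -1.15 to 0.45 for Cd14 and -0.17 to 0.36 for Irak1. All 8 intervals held 0 in either way. The same difference was -11.03 for the Y-linked Ddx3y (95% interval -18.4 to -3.625, unadjusted p = 0.0035, adjusted p = 0.472), and its part in the values of the 8 genes was not tested.

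**Figure D4:**
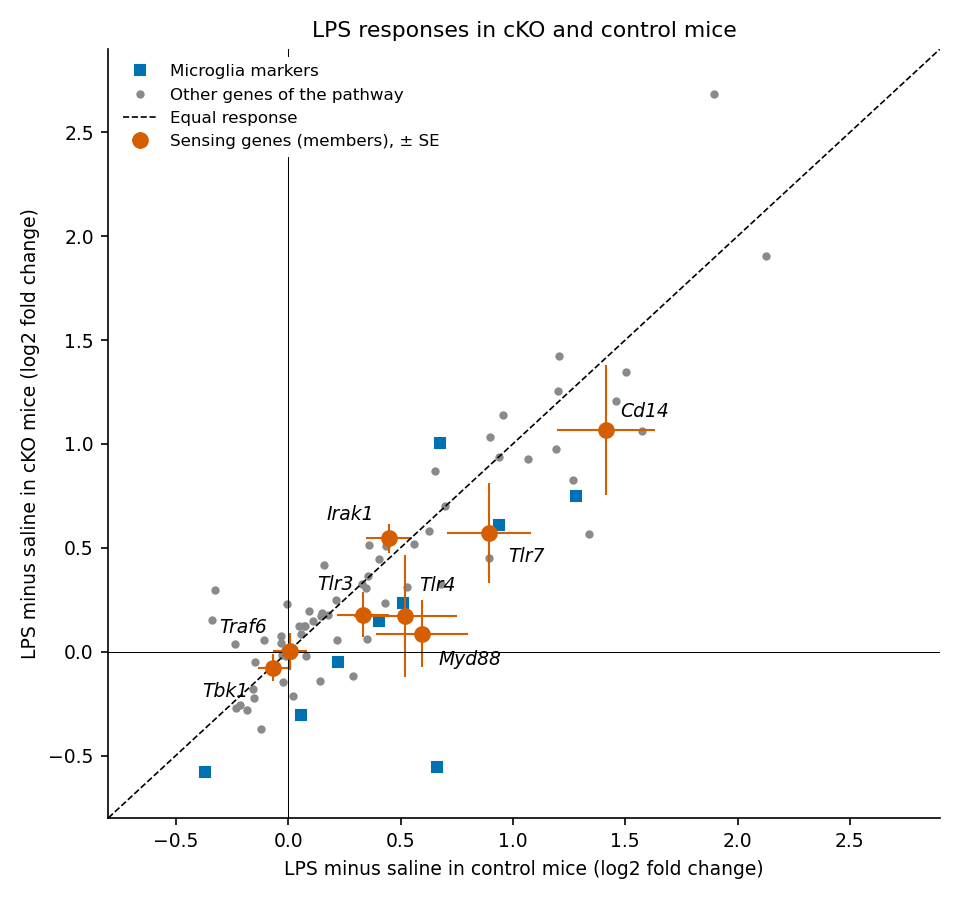
Log2 fold change for LPS against saline in cKO mice (vertical axis) and in control mice (horizontal axis) for the 8 sensing genes (orange, with SE in both directions), other genes of the pathway (grey) and microglia markers (blue squares); the dashed line marks equal responses. Cd14, Tlr3, Tlr4, Tlr7 and Myd88 lie below the line and Irak1 lies above it, with Cd14 at 1.07 in cKO and 1.42 in control mice.

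Markers of cell types known for these receptors moved in the same comparisons. Over all genes, 10.9% were called higher and 8.52% lower in cKO mice, and 6.46% higher and 3.31% lower in control mice. Of 9 microglia markers 3 rose and 2 fell in cKO mice and 5 rose and 0 fell in control mice among the genes of the authors' deposited tables. The medians were 0.15 in cKO and 0.51 in control mice. Their summed level, estimated from the authors' deposited tables, was 330.8 CPM in cKO LPS, 291.4 CPM in cKO saline, 407.9 CPM in control LPS and 287.2 CPM in control saline. Cx3cr1 rose by 0.24 ± 0.07 in cKO mice and 0.51 ± 0.13 in control mice, and P2ry12 had -0.58 ± 0.12 (FDR = 0.0145) and -0.37 ± 0.13 (FDR = 0.0997), in the authors' deposited tables. Tmem119 had -0.05 ± 0.11 in cKO mice and 0.22 ± 0.21 in control mice, neither past the threshold, in the authors' deposited tables. The list did not move as one: Fcrls, chosen here after its values were seen, fell by 0.55 in cKO mice and had 0.66 ± 0.20 in control mice (FDR = 0.0614) in the authors' deposited tables. Its difference of responses was -1.22 (adjusted p = 0.241). Sall1, chosen in the same way, rose by 1.00 ± 0.13 in cKO mice and 0.68 ± 0.17 in control mice in the authors' deposited tables. After LPS, 8 of the 9 microglia markers lay below 0 for cKO against control mice, with a median of -0.31. None of them passed, while 2 had an unadjusted p below 0.05, as did 12.3% of all genes. Of 3 border macrophage markers, 2 rose in cKO and 3 in control mice, and their summed level was 20.6 CPM in both LPS groups, 10.6 CPM in cKO saline and 11.1 CPM in control saline. Astrocyte markers summed to 4154 CPM in cKO LPS, 4671 CPM in cKO saline, 3924 CPM in control LPS and 4052 CPM in control saline, with 0 of 8 higher and 4 lower in cKO mice and 1 higher and 1 lower in control mice. Endothelial markers summed to 244.3 CPM in cKO LPS, 131.5 CPM in cKO saline, 267.8 CPM in control LPS and 134.5 CPM in control saline, with 5 of 6 higher in each genotype. The part of these markers in the results for the 8 genes was not tested.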

How the data were processed

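The members and all gene lists were chosen with earlier results of these data known. The submitters' processing notes name GRCm39, edgeR 3.30.3, RSEM, STAR and cutadapt 3.5, without roles or a gene filter. Total RNA was depleted of ribosomal RNA before stranded library construction, per the labels' protocols. Each of the 3 tables the authors deposited has, per the file headers, columns for log2 fold change, mean log2 CPM, F score, p-value and FDR for 13784 genes, 757 of them without a symbol. Groups came from the genotype label, since every title carries the word for saline; no batch is named, and where nothing says that samples came from separate preparations, p-values measure only the spread between these samples.

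Recomputed Benjamini-Hochberg values matched the deposited FDR. SE is the absolute log2 fold change over the root of F, and 95% intervals use the implied degrees of freedom (8.66 to 9.85). Fold changes were read as LPS minus saline and cKO minus control, since group levels back-calculated from different tables then differed by an SD of 0.0503 and 0.0537 log2 units, against at least 0.222 in 1 of the groups with any sign turned. Levels assume libraries of equal weight; per-kb levels use the longest GENCODE M21 transcript. The difference of responses used SEs and 95% intervals from the normal quantile of each deposited p-value, and its p-values were adjusted over all genes. It was also run on simulated data with independent errors per gene and no imbalance of sex, so that run does not cover such an imbalance. Up to 4 called genes per pathway list and comparison were named in order of p, and up to 3 markers per list in list order. List genes were matched by symbol, and 1 by gene ID. Python 3.11.15 with scipy 1.17.1 and statsmodels 0.14.6 was used.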

Additional observations from a re-analysis of the deposited data

How the results depend on the processing

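No paired analysis was possible because the deposited tables hold no values per library, and for the same reason no replicate could be left out; both alternatives were not run. With a minimum fold change of 1.5, 1 sensing gene was called in cKO mice (Cd14) and 2 in controls (Cd14 and Tlr7), and 649 and 498 of all genes, against 2681 and 1346 as deposited. With Holm adjustment, 0 sensing genes were called in either genotype, and 14 and 72 of all genes. In cKO mice 1 sensing gene, Irak1, was called when low genes (mean log2 CPM below 1) were left out, which drops Cd14, and when a trend on GC content and length or on mean log2 CPM was taken out; the cause of the last 2 changes was not tested. Calls in controls numbered 3 under these last 3 settings and with the median of all genes removed, and 0 sensing genes were called between genotypes or for the difference of responses under any setting run. Uncalled values changed sign as follows. Without the trend on GC content and length, Traf6 had -0.0208 in controls and 0.0376 for the difference, Myd88 -0.0001 in cKO mice, Ube2v1 -0.0140 between genotypes and -0.0152 for the difference, and Tmed7 0.0429 for the difference. Without the trend on mean log2 CPM, Myd88 had -0.0404 and Traf6 -0.0053 in cKO mice. For the sensing genes, 176 of 190 values kept their direction and their side of the threshold, and 9 lost a call. Most of the 190 were uncalled as deposited, and Holm adjustment and the minimum fold change cannot alter an uncalled value. The count therefore does not measure how firm the calls are. Low expression of Cd14, with a mean log2 CPM of 0.88 in the cKO table, and the unknown depth limit the precision.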
